A study of Homo sapiens with 6 samples.

Results

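The guides described here are directed at RPL13, RPL14, RPS27A and AAMP, and were taken by the gene name that the count table gives each guide. They are 40 of the 3653 guides and cover 4 of the 348 target genes. The table numbers its guides in 2 stretches, and each gene has 5 guides in the lower stretch, called the first set here, and 5 in the upper stretch, called the second set. The split lies far from any member, since the closest are number 1040 of RPS27A in the first set and number 1946 of RPL14 in the second. Guide 1948 of RPL14 and guides 2569 and 2570 of RPS27A had 0 counts in all 6 libraries, as had 40 guides of the whole table, which leaves 37 member guides with values. A count of 0 allows up to 3 counts, or 0.122 CPM in the deepest library and 0.832 CPM in the first tumour library.

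The screen used HS-SY-II, a human synovial sarcoma line that carries the SS18::SSX1 fusion, made to express Cas9 and given the guide library by lentivirus under puromycin selection. Of each group 2 libraries were sequenced, and all groups carried Cas9 and the guide library. The in vivo group consisted of tumours grown under the skin of athymic nude mice, which lack T cells but keep other immune cells, the day 14 group of cells kept in culture for 14 days, and the day 0 group of cells frozen once selection had ended. The labels number the tumours 1 and 2, whereas a plot in the study's supplement names both as mice of replicate 1. The transduction behind the second tumour is therefore not settled, and the p-values measure the spread between these libraries only.

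Ribosomal proteins assemble with ribosomal RNA into a large and a small subunit, and most of them are needed for a working ribosome in every dividing cell. RPL13 and RPL14 are proteins of the large subunit. RPS27A is made as a fusion of ubiquitin with a protein of the small subunit, so the gene feeds the ubiquitin pool as well as the ribosome. AAMP is a WD40-repeat protein, and its counterpart in budding yeast, Sqt1, is a chaperone that accompanies the large-subunit protein Rpl10 to the assembling ribosome. In a pooled screen, a guide that slows the growth of its cells falls in its share of the counts over time.

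Genes of ribosomal proteins have many processed pseudogenes, and the 4 genes differ in this. In GENCODE v44 on hg38, RPL13 lies at chr16:89560677-89564542 on the plus strand, RPL14 at chr3:40457292-40468587 on the plus strand, RPS27A at chr2:55231903-55235853 on the plus strand and AAMP at chr2:218264129-218270178 on the minus strand. The annotation names 19 pseudogenes of RPS27A, 6 of RPL13, 6 of RPL14 and 0 of AAMP. Of the candidate Cas9 sites (20 bases before NGG) that cut in the coding sequence, 39 of 46 in RPS27A (84.8%), 97 of 129 in RPL13 (75.2%) and 57 of 79 in RPL14 (72.2%) also occurred letter for letter, with an NGG, elsewhere in the genome. In AAMP this held for 3 of 258 sites (1.16%). The highest number of places for 1 site was 9 for RPS27A, 7 for RPL13, 6 for RPL14 and 4 for AAMP. These are all candidate sites and not the guides of the screen, whose sequences were not used here, and whether a given guide has such copies was not tested.

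Library depth was 4457673 and 8530791 counts in the tumours, 3394352 and 4052307 counts at day 14, and 21854232 and 4521533 counts at day 0, and levels are given as CPM, the count scaled to library depth with TMM factors. The 2 tumours differed from each other more than the other pairs did: the absolute log2 difference of the 183 non-targeting guides, which cut no gene, had a median of 0.90 between the tumours, 0.32 between the day 14 libraries and 0.39 between the day 0 libraries. Second set guides of all genes held 38.3% and 38.1% of all counts in the tumours and 36.5% and 36.3% at day 14, against 53.3% and 49.6% at day 0. Each member set is therefore read beside all guides of its own set. On this scale the median non-targeting guide lay above day 0 by a log2 value of 0.57 in the tumours and 0.50 at day 14. Scaling the counts to the non-targeting guides instead moved the median of all guides by -0.85 in the tumours and -0.51 at day 14, and signs of small changes depend on that choice.

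Guides of the second set against these 4 genes took a far smaller share of the counts in both arms than at day 0, and guides of the first set mostly did not. Together the 17 second set guides with values held 0.0259% and 0.0118% of all counts in the tumours and 0.0306% and 0.0221% at day 14, against 0.401% and 0.187% at day 0. The 20 first set guides held 0.474% and 0.781% in the tumours and 0.567% and 0.609% at day 14, against 0.509% and 0.571% at day 0. The second set shares do not overlap between either arm and day 0, and the first set shares do. Over all genes, second set shares did not overlap day 0 either, and first set shares rose without overlap. All first set guides held 54.24% and 54.99% of all counts in the tumours and 55.49% and 55.65% at day 14, against 41.23% and 44.45% at day 0. Member first set guides did not share that rise without overlap.

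Counted over all 37 guides, 17 were at least 4-fold lower than at day 0 in the tumours, where 12.7% of all guides were, and 17 were so at day 14, where 7.6% were. Both later libraries lay below both day 0 libraries for 19 guides in the tumours, where this held for 30.6% of all guides, and for 21 at day 14, where it held for 31.5%. By the quasi-likelihood test of edgeR, adjusted by Benjamini-Hochberg over 3607 guides, 2 of the 37 guides were lower in the tumours, where 1.14% of all guides were, and 0 at day 14, where 0% were. Both calls were lost with the replicate number or the transduction as a block, when only the groups compared were fitted, and without any 1 of the day 0 or day 14 libraries. At an unadjusted p under 0.05, 14 guides were lower in the tumours, where 12.8% of all guides were, and 12 at day 14, where 7.18% were. Calls of single guides were thus few, and the larger counts rest on the size of the changes and on the separation of the libraries.

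Within the second set, 14 of 17 guides were at least 4-fold lower in the tumours, against 21.1% of all second set guides, and 15 of 17 at day 14, against 12.7%. The tumours lay below day 0 without overlap for 15 of the 17 guides, against 46.6% of the set, and the day 14 libraries for 17 of 17, against 52.3%. Their median log2 fold change was -4.84 in the tumours and -4.34 at day 14, and that of all second set guides -0.61 in the tumours and -0.57 at day 14. Within the first set, 3 of 20 guides were at least 4-fold lower in the tumours, against 3.35% of all first set guides, and 2 of 20 at day 14, against 1.88%. A log2 fold change above 0 was found for 13 of the 20 in the tumours, against 71% of the set, and for 14 of 20 at day 14, against 80.7%. With scaling to the non-targeting guides, 8 of the 20 were above 0 in each arm, close to the 35.7% of all first set guides in the tumours and the 41.4% at day 14. None of the 17 second set guides was above 0 in either arm under the 3 scalings, and under non-targeting scaling 13.7% of all second set guides were in the tumours and 6.94% at day 14.

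RPL13 had the largest fold reduction of summed second set counts among the 4 genes, although without the first tumour RPL14 and RPS27A were lower in the tumours (log2 fold changes of -7.01 and -7.37, against -5.57 for RPL13). The sum over its 5 second set guides was 32.7 and 20.1 CPM in the tumours and 57.2 and 38.1 CPM at day 14, against 1440.0 and 468 CPM at day 0. This was a log2 fold change of -5.18 ± 0.86 in the tumours (SE, adjusted p = 0.011) and of -4.32 ± 0.82 at day 14 (SE, adjusted p = 0.0336), or 36.3-fold and 20.0-fold lower. Among 647 sums of a gene and a set, it ranked 1 from the lowest in the tumours and 4 at day 14. The sum over its first set guides was 1817 and 1366 CPM in the tumours and 1239 and 1432 CPM at day 14, against 1136 and 1112 CPM at day 0, and did not pass the test in either arm (adjusted p = 0.151 and 0.523). Its log2 fold change was 0.50 in the tumours and 0.25 at day 14, where all first set sums had a median of 0.77 and 0.41. The first set sums of RPL14 and AAMP also lay below these medians in both arms.

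Each of the 5 second set guides of RPL13 lay below both day 0 libraries in both arms. Of all second set guides, 46.6% did so in the tumours and 52.3% at day 14. Guide 2474 had 2.22 and 2.89 CPM in the tumours and 1.57 and 2.88 CPM at day 14, against 413 and 98.4 CPM at day 0. It was one of the pair of member guides past the adjusted threshold in the tumours, with a log2 fold change of -6.63 ± 1.17 (SE, adjusted p = 0.0426), and at day 14 it had -6.83 ± 1.19 (adjusted p = 0.174). In reads, it had 8 and 19 counts in the tumours and 6 and 13 counts at day 14, against 10140 and 506 counts at day 0. Guide 2472 had 1.66 and 0.913 CPM in the tumours and 1.83 and 1.11 CPM at day 14, against 149 and 87.9 CPM at day 0, and was thus nearly gone from all 4 later libraries. Guide 2475 had 3.88 and 1.37 CPM in the tumours and 3.66 and 15.3 CPM at day 14, against 322 and 63.2 CPM at day 0.

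The other second set guides of RPL13 kept more reads in single libraries. Guide 2473 had 21.6 and 1.83 CPM in the tumours and 1.83 and 11.1 CPM at day 14, against 373 and 111 CPM at day 0. Guide 2471 was the least reduced, with 3.33 and 13.1 CPM in the tumours and 48.3 and 7.76 CPM at day 14, against 183 and 107 CPM at day 0. The 5 guides had log2 fold changes of -6.63 to -4.13 in the tumours and -6.83 to -2.37 at day 14.

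In the first set, guide 1028 of RPL13 stood apart from the other 4. It had 1.66 and 43.8 CPM in the tumours and 22.5 and 28.8 CPM at day 14, against 93.1 and 184 CPM at day 0, so both arms lay below day 0 without overlap. Its log2 fold change was -2.60 ± 1.40 in the tumours (SE, adjusted p = 0.274) and -2.43 ± 1.39 at day 14 (adjusted p = 0.662), and neither passed the test. The other 4 had log2 fold changes of 0.52 to 1.14 in the tumours and 0.02 to 0.96 at day 14. Guide 1026, for example, had 727 and 518 CPM in the tumours and 403 and 434 CPM at day 14, against 422 and 405 CPM at day 0.

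For RPL14, 3 of the 4 second set guides with values lay below day 0 in both arms, and the tumours stood apart from each other for the remaining guide. Such a separation was found for 46.6% of all second set guides in the tumours and 52.3% at day 14. The sum was 59.9 and 2.43 CPM in the tumours and 13.8 and 29.5 CPM at day 14, against 449 and 180.4 CPM at day 0. The log2 fold change was -3.35 ± 2.10 in the tumours (SE, adjusted p = 0.225) and -3.86 ± 2.15 at day 14 (SE, adjusted p = 0.282), so the sum did not pass the test in either arm. Guide 1946 made up most of the sum in the first tumour, with 55.4 CPM there and 0.609 CPM in the second tumour, 9.40 and 24.2 CPM at day 14, and 207 and 35.0 CPM at day 0. For this guide the tumours overlapped day 0.

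The remaining guides of the RPL14 second set had 18 counts or fewer in each later library. Guide 1947 had 1.66 and 0.761 CPM in the tumours and 0 and 0.222 CPM at day 14, against 51.5 and 72.5 CPM at day 0. Its reads were 6 and 5 counts in the tumours and 0 and 1 count at day 14, against 1264 and 373 counts at day 0. The ratio of summed, depth-scaled counts was 51.0-fold lower in the tumours (95% interval 28.4 to 102.4, counting error only) and 460-fold lower at day 14 (95% interval 82.4 to 18170, counting error only). The day 14 ratio is thus known only within a wide range, since it rests on 1 count. Guide 1949 had 1.11 and 0.152 CPM in the tumours and 1.04 and 1.11 CPM at day 14, against 114 and 57.0 CPM at day 0. Guide 1950 had 1.66 and 0.913 CPM in the tumours and 3.395 and 3.99 CPM at day 14, against 76.6 and 15.9 CPM at day 0.

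No first set guide of RPL14 was reduced by 4-fold in either arm. Its 5 guides had log2 fold changes of -0.54 to 1.17 in the tumours and -0.52 to 0.60 at day 14, and their sum was 1798 and 3133 CPM in the tumours and 2013 and 2224 CPM at day 14, against 1781 and 2197 CPM at day 0. The tumour and day 0 values of the sum overlapped, as did the day 14 and day 0 values. Guide 1033 was the most uneven of them, with 152 and 895 CPM in the tumours and 243 and 263 CPM at day 14, against 205 and 262 CPM at day 0.

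In RPS27A, 1 first set guide was reduced as far as second set guides were, while others had high levels in the tumours. Guide 1038 had 1.94 and 1.83 CPM in the tumours and 3.395 and 3.33 CPM at day 14, against 360.2 and 183 CPM at day 0. Its log2 fold change was -7.16 ± 0.99 in the tumours (SE, adjusted p = 0.0426), the other member guide past the threshold, and -6.33 ± 0.95 at day 14 (SE, adjusted p = 0.158). The tumours were nearly equal, as were the day 14 libraries, while the day 0 libraries differed, and both tumours also lay below both day 14 libraries.

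Of the other first set guides of RPS27A, 3 had log2 fold changes above 0 in both arms and were highest in the second tumour. Guide 1040 had 729.9 and 2162 CPM in the tumours and 460.5 and 360.1 CPM at day 14, against 162 and 331 CPM at day 0. Guide 1037 had 390.0 and 1371 CPM in the tumours and 277 and 455 CPM at day 14, against 142 and 190.2 CPM at day 0. Their log2 fold changes in the tumours were 2.55 ± 0.66 (SE, adjusted p = 0.0776) and 2.41 ± 0.66 (SE, adjusted p = 0.0853). Guide 1039 had 209 and 1038 CPM in the tumours and 404 and 247 CPM at day 14, against 254 and 290.3 CPM at day 0. Guide 1036 had log2 fold changes of -0.60 in the tumours and -0.13 at day 14, from levels that were low throughout, with 1.11 and 27.5 CPM in the tumours and 3.13 and 36.6 CPM at day 14, against 11.5 and 32.3 CPM at day 0.

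Summed over the first set, RPS27A had 1332 and 4601 CPM in the tumours and 1147 and 1102 CPM at day 14, against 929.8 and 1027 CPM at day 0. The sum rose in the tumours, with a log2 fold change of 1.60 ± 0.49 (SE, adjusted p = 0.0334), and was 1 of 151 sums called higher there among the 647, while at day 14 it had 0.20 ± 0.48 (adjusted p = 0.795). Without the second tumour the log2 fold change was 0.45 (adjusted p = 0.112), which ended the call. With both tumours it was 0.76 when non-targeting guides set the scale in place of TMM factors (adjusted p = 0.264), which also ended it. Median-ratio factors and DESeq2 kept the call (log2 fold change 1.69 and 1.31, adjusted p = 0.0257 and 0.0226). Fitting only the groups compared ended the call (adjusted p = 0.0945), as did the block with both tumours in the first transduction (adjusted p = 0.0829). The call was also lost without any 1 of the day 0 or day 14 libraries (adjusted p = 0.0814 to 0.207), with the log2 fold change at 1.63 to 1.70.

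The 3 second set guides of RPS27A that had values were low in most of the later libraries. Guide 2566 had 19.7 and 1.22 CPM in the tumours and 9.40 and 4.88 CPM at day 14, against 278 and 223 CPM at day 0. Guide 2567 had 0.277 and 0.457 CPM in the tumours and 0.522 and 12.2 CPM at day 14, against 98.0 and 61.8 CPM at day 0. Its tumour values, 1 and 3 counts, gave a ratio 233-fold lower than day 0 (95% interval 91.1 to 858, counting error only). Guide 2568 differed between replicates in both arms, with 44.6 and 0.761 CPM in the tumours and 26.6 and 0.887 CPM at day 14, against 86.8 and 63.8 CPM at day 0. The first tumour and the first day 14 library thus kept this guide while the second of each had nearly lost it. The sum of the 3 guides had a log2 fold change of -3.61 ± 1.77 in the tumours (SE, adjusted p = 0.133) and -3.90 ± 1.80 at day 14 (SE, adjusted p = 0.224).

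For AAMP, the second set sum was reduced by a smaller fold than for RPL13, with a wider range over its guides, and the difference between the genes was not tested. The sum over the second set was 163 and 129 CPM in the tumours and 164 and 113 CPM at day 14, against 1221 and 651 CPM at day 0. Its log2 fold change was -2.68 ± 0.59 in the tumours (SE, adjusted p = 0.0143) and -2.76 ± 0.59 at day 14 (SE, adjusted p = 0.0456), or 6.42-fold and 6.77-fold lower, ranking 13 and 17 among the 647 sums. Its first set sum was 906 and 1045 CPM in the tumours and 627 and 716 CPM at day 14, against 683 and 684 CPM at day 0, and did not pass the test (adjusted p = 0.174 and 0.965).

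In the second set, guide 2436 had the largest fold reduction in the tumours (log2 fold change -5.33 ± 1.15, SE, adjusted p = 0.0576), with 2.50 and 13.4 CPM in the tumours and 9.66 and 2.88 CPM at day 14, against 398 and 249 CPM at day 0. Guide 2439 had 9.70 and 1.37 CPM in the tumours and 13.3 and 22.4 CPM at day 14, against 225 and 89.4 CPM at day 0. Guide 2440 had 1.94 and 50.5 CPM in the tumours and 3.66 and 2.22 CPM at day 14, against 324 and 140.2 CPM at day 0, so the second tumour kept it at a level that no other later library had. The remaining pair was reduced least. Guide 2437 had 14.1 and 60.7 CPM in the tumours and 65.3 and 44.8 CPM at day 14, against 138 and 81.9 CPM at day 0. Guide 2438 had 135 and 2.59 CPM in the tumours and 72.1 and 40.4 CPM at day 14, against 136 and 89.8 CPM at day 0, and the first tumour overlapped day 0.

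In the first set of AAMP, guide 2 lay below day 0 in both arms. It had 68.5 and 65.1 CPM in the tumours and 103 and 67.6 CPM at day 14, against 337 and 227 CPM at day 0, with a log2 fold change of -2.08 ± 0.61 in the tumours (SE, adjusted p = 0.0982) and -1.72 ± 0.61 at day 14 (SE, adjusted p = 0.475). Guide 5 had 539 and 344 CPM in the tumours and 119 and 243 CPM at day 14, against 123 and 166 CPM at day 0, and the tumours lay above both other groups. The other 3 had log2 fold changes of -0.32 to 1.52 in the tumours and 0.24 to 1.01 at day 14.

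Of the 8 member sums, 2 were called lower in the tumours, where 10.8% of all sums were, and the same 2, the second sets of RPL13 and AAMP, at day 14, where 2.63% were. A block that puts both tumours in the first transduction, an assignment the labels do not settle, ended both calls at day 14 (adjusted p = 0.0613 for RPL13 and 0.0821 for AAMP) and kept both in the tumours (0.0252 and 0.0388). Leaving out either day 0 library or either day 14 library ended both calls in both arms, with an adjusted p of 0.0528 to 0.168 in the tumours and of 0.224 to 0.676 at day 14. The log2 fold change of RPL13 then stayed between -5.77 and -4.05 in the tumours and -4.91 and -3.25 at day 14. That of AAMP stayed between -3.06 and -2.06 in the tumours and -3.14 and -2.19 at day 14. Without the first tumour, the second sets of RPL14 and RPS27A had log2 fold changes of -7.01 and -7.37 in the remaining tumour. Without the second tumour, RPS27A had -2.65. Each of these fits holds 1 tumour, so the spread between tumours does not enter it, and only the size of the change is given. The sums at day 14 of RPL14 and RPS27A passed the test when either tumour was left out, and the cause was not tested.

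Whether the 2 sets differed was tested within libraries, as the log2 ratio of the second set sum to the first set sum of a gene, with limma over 299 genes that have at least 2 kept guides in each set. The ratio of RPL13 was -5.77 and -6.05 in the tumours and -4.43 and -5.21 at day 14, against 0.34 and -1.25 at day 0. The change from day 0 was -5.46 ± 0.59 in the tumours (SE, adjusted p = 0.00184) and -4.37 ± 0.59 at day 14 (SE, adjusted p = 0.00825). The ratio of AAMP was -2.47 and -3.02 in the tumours and -1.93 and -2.66 at day 14, against 0.84 and -0.07 at day 0. That was a change of -3.13 ± 0.49 in the tumours (adjusted p = 0.0037) and of -2.68 ± 0.49 at day 14 (adjusted p = 0.0114).

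For RPL14 and RPS27A the sets differed in the tumours and did not pass the test at day 14. Their second set sums alone did not pass the edgeR test in the tumours (adjusted p = 0.225 and 0.133). Each of those sums was 2.43 CPM in the second tumour, before 0.5 CPM was added. The first set sum of RPS27A rose in the tumours (log2 fold change 1.60), which enters its ratio. The ratio of RPL14 was -4.90 and -10.06 in the tumours and -7.13 and -6.21 at day 14, against -1.99 and -3.60 at day 0, a change of -4.68 ± 1.45 in the tumours (adjusted p = 0.0372) and -3.88 ± 1.45 at day 14 (adjusted p = 0.0941). The ratio of RPS27A was -4.36 and -10.61 in the tumours and -4.95 and -5.90 at day 14, against -1.01 and -1.56 at day 0, a change of -6.20 ± 1.66 in the tumours (adjusted p = 0.0228) and -4.15 ± 1.66 at day 14 (adjusted p = 0.112). So 4 of 4 genes were called in the tumours, where 37.1% of the 299 genes were, and 2 of 4 at day 14, where 15.4% were. The median over the 299 genes was -1.11 in the tumours and -0.96 at day 14. Leaving out the first day 0 library ended each of these calls except that of RPL13 in the tumours (adjusted p = 0.0539 to 0.212 for the calls lost). Leaving out the second day 0 library ended those of RPL14 and RPS27A in the tumours (both at an adjusted p of 0.0751) and of AAMP at day 14 (0.056), and leaving out either day 14 library also ended the last (0.0532 and 0.106).

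Between the tumours and the cultures, no difference of these guides passed the test. Both tumours lay below both day 14 libraries for 5 of the 37 guides, against 22.4% of all guides, and 0 guides were lower at an unadjusted p under 0.05, against 5.54%. After adjustment 0 were lower, against 0% of all guides, and 0 of the 8 sums, against 0% of all sums. The log2 fold change between tumours and day 14 of the second set sums was -0.86 ± 0.74 for RPL13, 0.51 ± 1.95 for RPL14, 0.29 ± 1.62 for RPS27A and 0.08 ± 0.55 for AAMP (SE, adjusted p = 0.490 to 0.941). With these errors, a several-fold difference between the arms would not have been detected for RPL14 or RPS27A. For RPL13 and AAMP, whose errors were smaller, such a difference could also have been missed after adjustment. The first set sum of RPS27A had 1.40 ± 0.49 (adjusted p = 0.128).

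At day 0 itself, the second set guides of these genes were lower in the second library than in the first. This held for 16 of 17 guides, with a median log2 difference of -0.77, whereas 1097 of all 1932 second set guides were lower, with a median of -0.11. By gene the median was -1.74 for RPL13, -1.61 for RPL14, -0.74 for AAMP and -0.44 for RPS27A. First set guides of the 4 genes were lower in 5 of 20 cases, with a median of 0.37. Of all 1492 first set guides 635 were lower, with a median of 0.10. The paper's methods give a range of days for the puromycin selection, and whether the day 0 libraries differ in it was not tested.

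When genes were compared by the median log2 ratio to day 0 of their second set guides in the 4 later libraries, RPL14 lay close to both other ribosomal protein genes. RPL13 had -5.46 and -6.40 in the tumours and -5.68 and -4.39 at day 14, RPL14 -4.64 and -6.20 in the tumours and -4.71 and -4.56 at day 14, and RPS27A -3.64 and -6.39 in the tumours and -4.66 and -5.54 at day 14. AAMP had -3.95 and -4.54 in the tumours and -3.51 and -2.78 at day 14, a smaller change than the other genes in each library except the first tumour, where RPS27A changed less. By Euclidean distance over these 4 values, the closest genes to RPL13 were RPL14 (1.29), MDM4 (1.335) and PRPF19 (1.92), and the closest to RPL14 were RPL13 (1.29), RPS27A (1.42) and PRPF19 (1.71). PRPF19 (1.38), RPL14 (1.42) and PIAS1 (2.07) were closest to RPS27A, and SAE1 (0.649), BRD9 (1.06) and TAF4 (1.475) to AAMP.

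Other genes of core cell machinery gave a scale for these changes. The second set sum of PRPF19, a ubiquitin ligase of the spliceosome, had a log2 fold change of -4.60 in the tumours (adjusted p = 0.0277) and -5.54 at day 14 (adjusted p = 0.0651), and that of SRSF2, a splicing factor, -1.94 in the tumours (adjusted p = 0.0392) and -2.46 at day 14 (adjusted p = 0.0713). None of 7 further ribosome genes listed for this work (RPS21, LSG1, NOP14, UTP18, POLR1B, LYAR and EEF1D) had guides in the counts. Among 5 genes of ribosome assembly and translation that did, chosen by name after the table had been opened, 0 of 9 sums were called lower in either arm. Of all sums, 10.8% were called lower in the tumours and 2.63% at day 14. Of the 9 sums, 2 were called higher in the tumours, where 151 of all 647 were, so neither count sets these genes apart from the other sums. Those 2 were the first sets of ESF1, a nucleolar factor of ribosomal RNA processing (log2 fold change 1.07, adjusted p = 0.0206), and ZCCHC4, which methylates the RNA of the large subunit (1.08, adjusted p = 0.0158). Both values are on the TMM scale, and scaling to the non-targeting guides moved the median of all sums in the tumours by -0.86. The second set of ESF1 had 4 of 5 guides at least 4-fold lower in each arm, with a median log2 fold change of -2.66 in the tumours and -3.37 at day 14. Its set difference was -0.96 ± 0.58 in the tumours (SE, adjusted p = 0.220) and -2.24 ± 0.58 at day 14 (SE, adjusted p = 0.0406). That of PRPF19 was -5.00 ± 1.05 in the tumours (SE, adjusted p = 0.0103) and -5.25 ± 1.05 at day 14 (SE, adjusted p = 0.0147). It ranked 6 from the lowest in the tumours and 1 at day 14 among the 299 genes. SRSF2 had -2.20 in the tumours (adjusted p = 0.0646) and -2.74 at day 14 (adjusted p = 0.0579). The split between sets was thus not limited to the 4 genes in either arm. BRF1, a factor of RNA polymerase III, the translation repressor EIF4EBP2 and the stress kinase EIF2AK1 had no sum past the threshold.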

How the data were processed

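Guide DNA was amplified from HS-SY-II Cas9 cells and tumours and sequenced. The authors deposited raw read counts for each guide, obtained with MAGeCK (version not given in the sources used) from reads mapped to their library. They also deposited normalized signal values, which equal the counts multiplied by a constant for each library (0.320 to 1.45) that was set by an unstated rule. Columns were assigned to samples by their names.

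A guide was kept when its day 0 libraries averaged 30 counts or more (3607 of 3653), a filter that does not read the later libraries. Counts of guides, and counts summed over the kept guides of a gene and set, received TMM factors and were tested by quasi-likelihood in edgeR 4.0.16 (R 4.3.3), with the 6 libraries in 1 fit and with Benjamini-Hochberg adjustment over all guides or sums at 0.05. The SE of a log2 fold change is its size over the square root of F. Set ratios, with 0.5 CPM added, were tested with limma 3.58.1. Ratios resting on few reads have exact intervals of summed counts, which cover counting error only, since amplified reads are not independent molecules. Depth ranged from 929 to 5983 counts per guide. With 2 libraries a group, an exact permutation test could not reach 0.05. Rank aggregation over guides was not run. The guide, sum and set ratio tests were run on simulated data, and the other steps were not. The simulation gave all libraries the same spread, so it does not cover the larger spread between the tumours. Candidate sites and positions come from GENCODE v44 and hg38.

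Named were the 4 genes with every guide, the 7 listed ribosome genes, PRPF19 and SRSF2, and the 3 genes closest to each member. The genes, the lists and the split into sets were chosen with earlier results of these data known. Alternatives were median-ratio and non-targeting scaling, other filters, DESeq2 1.42.0, limma on the deposited normalized values, a fit of only the groups compared, a replicate block, sums over all guides of a gene, other forms of the set ratio, and leaving out each library.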

Additional observations from a re-analysis of the deposited data

How the results depend on the processing

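No called sum or set difference of the 4 genes changed sign under any alternative tried, and the counts of calls moved widely. Member guides called lower, 2 in the tumours and 0 at day 14, were 14 and 10 with DESeq2, 12 and 5 with limma on the deposited normalized values, and 0 and 12 when only the groups compared were fitted. In the tumours they were 10 with scaling to the non-targeting guides. Over all guides, 41 in the tumours and 0 at day 14 were called lower, against 370 and 125 with DESeq2, 260 and 48 with limma, 0 and 293 with only the groups compared, and 323 and 0 with non-targeting scaling. Between tumours and day 14, DESeq2 called 76 and limma 12, against 0, and none of them was a member. Member sums called lower, 2 in each arm, were 4 and 4 with DESeq2, 1 and 4 with only the groups compared, 1 at day 14 with median-ratio factors, and 0 and 0 when all guides of a gene were summed without regard to set (log2 fold changes of -0.53 to 1.12 in the tumours and -0.9999 to -0.11 at day 14). Scaling to the non-targeting guides turned the split of called sums in the tumours, 70 lower and 151 higher, into 208 lower and 6 higher. The cause of these moves was not tested.

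Leaving out 1 library gave 0 to 15 member guides in the tumours, 0 to 12 at day 14 and 0 to 3 between tumours and day 14, and 0 to 624, 0 to 267 and 0 to 342 of all guides. It gave 0 to 4 member sums in each arm and 0 to 1 between them, and set differences of 1 to 4 genes in the tumours and 0 to 4 at day 14. An arm left with 1 library was assumed to vary like the others.

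With the replicate number as a block, member guides called lower were 0 in the tumours and 0 at day 14 (0 of all guides in either arm), member sums 2 and 2, and set differences 4 and 2. Deviations of libraries with the same number correlated by 0.073 for day 14 and day 0. For the tumours the correlation was 0.0053 with day 0 and -0.0017 with day 14. The main fits did not use the number as a pairing. The paper describes cells of each transduced replicate as kept in culture, so day 14 and day 0 libraries may be paired by number. A low correlation over all guides cannot exclude that. A block that puts both tumours in the first transduction, added after seeing the data, gave 0 member guides in the tumours and 0 member sums at day 14. Depth limits the lowest guides, since 1 and 2 member guides had 3 or fewer counts in the 2 tumour libraries, against 2 and 1 in the cultures and none in the day 0 cells.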
